A study of Mus musculus with 32 samples.

Results

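Translation initiation factors are the proteins that bring the small ribosomal subunit, the initiator tRNA and a capped messenger RNA together at a start codon. eIF4E binds the cap, eIF4G is the scaffold that joins it to the helicase eIF4A and to eIF3, eIF2 carries the initiator tRNA, eIF2B recharges eIF2 with GTP, eIF1, eIF1A and eIF5 act in the choice of the start codon, and kinases that phosphorylate eIF2 or proteins that hold eIF4E lower the rate of initiation. In neurons these factors serve protein synthesis in the dendrites as well as in the cell body, and signals at synapses act on several of them.

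The genes described here are those of the 3′UTR count table whose symbol begins with Eif and a digit, apart from rows named as pseudogenes. The rule gave 56 genes of 44081 in the table. They comprised 14 genes of eIF3, 6 of eIF2 and other carriers of the initiator tRNA, 5 each of eIF1 with eIF1A, of eIF2B and of eIF4A with eIF4B and eIF4H, 4 each of the eIF2 kinases, of eIF4E, of the eIF4E-binding proteins and of eIF5, 3 of eIF4G, 1 of eIF6, and Eif2c5, an older name in the Argonaute series that fits the rule by its letters and is annotated as a non-coding RNA. A gene entered the test when 16 or more of the 32 libraries held a read on it, which 51 of the 56 did, whereas Eif2c5, Eif3j2, Eif4e1b, Eif4ebp1 and Eif4ebp3 fell short of that. Reads in all 16 somas alone could meet this minimum.

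The libraries came from single hippocampal neurons of C57BL/6 mice, taken on embryonic day 18 and grown in culture for 15 days with no further treatment in the labels. The dendrites and the soma of each of 16 neurons were drawn into separate tubes, which made 16 dendrite and 16 soma libraries, paired by cell. Messenger RNA with a poly-A tail was amplified by the aRNA method, which copies RNA by in vitro transcription, in 3 rounds for 4 neurons (1 to 4) and in 2 rounds for 12. The neurons came from several cultures. The sample titles carry 6 letters (B for neurons 1 and 2, H for 3 and 4, I for 5 to 8, M for 9 to 11, N for 12 to 14, P for 15 and 16), whose meaning is not given in the sources used here, and each letter holds both compartments of its neurons. The p-values below measure the spread between these cells. Each library is thus 1 compartment of 1 cultured embryonic cell.

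Reads counted on 3′UTRs numbered 646521 to 6954420 per dendrite library and 925525 to 21169974 per soma library. Levels are given as CPM, the reads of a gene scaled to a library of 1000000 reads, after TMM scaling (a correction for the make-up of each library), are not divided by length, and are therefore compared between compartments and not between genes. All 6 neuronal markers (such as Map2 and Snap25) had reads in at least 8 dendrites and in at least 8 somas, and their summed level was 1771 to 9225 CPM in dendrites and 2169 to 4959 in somas. The 3 interneuron markers Gad1, Gad2 and Slc32a1 also had reads in at least 8 libraries of each compartment (1737 to 11316 CPM in dendrites and 1126 to 19880 in somas, summed). Of 6 astrocyte markers, 4 had reads in at least 8 dendrites and 2 in at least 8 somas (0 to 1675 and 0.541 to 514 CPM, summed), and of 5 microglial markers none did (0 to 384 and 0 to 7.90). Of 5 oligodendrocyte markers 3 had reads in at least 8 dendrites and 2 in at least 8 somas (0 to 606 and 0 to 330), and of 4 endothelial markers 1 did in each (0 to 135 and 0 to 129). 1 of the endothelial markers had no read in any library. The 5 nuclear RNAs checked (such as Malat1 and Meg3) had reads in at least 8 libraries of each compartment, at 0 to 1677 in dendrites and 12.0 to 9415 in somas, summed. The part that RNA of other cells played in the values below was not tested. In such samples fewer processes in the pipette and less RNA per process cannot be told apart.

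Messages of initiation factors were found in every dendrite, though fewer of them than in the soma of the same cell. A dendrite library had reads on 13 to 51 of the 56 genes (median 43) and a soma library on 44 to 53 (median 50). The dendrite held 9.69 ± 9.53 fewer of these genes than its soma (SD, n = 16 neurons), with fewer in 14 neurons and more in neurons 5 and 6. The dendrites of neurons 15 and 16, both of letter P, stood apart, with 13 and 23 of the genes, and they also had the fewest genes of any kind with 10 reads (1570 and 2485) and the highest mitochondrial shares of reads (35.8% and 32.4%). With both libraries of a neuron thinned to the same number of reads the difference was 8.62 ± 9.86 genes (SD, n = 16). At a minimum of 10 reads the dendrite held 13.7 ± 10.8 fewer of the genes (SD, n = 16). Genes of any kind with 10 reads were also fewer in each dendrite except that of neuron 5 (9871, and 6889 in its soma). In neuron 4, for example, they numbered 5500 in the dendrite and 11009 in the soma. Of the 51 initiation factor genes tested below, 27.5% had reads in at least 15 dendrites, where 17.1% of all 10880 genes tested did.

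Together the initiation factor genes took 2571 to 7989 CPM of a dendrite library (median 5531) and 5085 to 9444 of a soma library (median 6540), here as plain shares of all 3′UTR reads. The share was lower in the dendrite in 14 of 16 neurons, by 1660 ± 1499 CPM (SD, n = 16). Mitochondrially encoded genes took 2.39% to 35.8% of dendrite reads and 0.277% to 8.12% of soma reads. With those genes left out of the total, the difference was 756 ± 2179 CPM and 11 of 16 dendrites had the lower share, a difference smaller than its own SD. On exon counts it was 678 ± 2463 CPM, again lower in 11 of 16 dendrites.

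**Figure D1:**
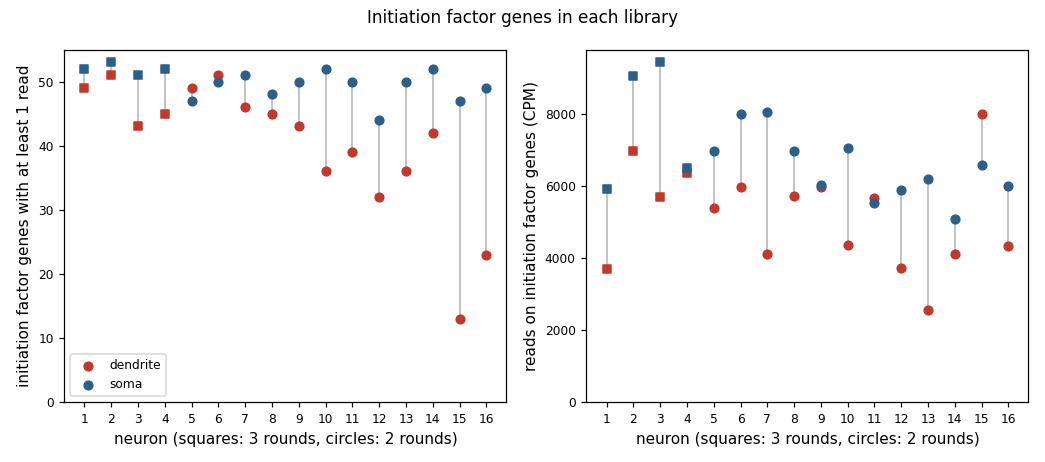
Left, number of the 56 initiation factor genes with at least 1 read in each library, and right, the share of all reads on 3′UTRs that fell on these genes, as CPM, for the dendrite (red) and the soma (blue) of neurons 1 to 16, with squares for neurons amplified in 3 rounds and circles for 2 rounds. Dendrites lie below their somas in 14 of 16 neurons in each panel, and the dendrites of neurons 15 and 16 hold 13 and 23 of the genes.

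Several steps of initiation had all of their parts in most dendrites. Eif4e, a gene for eIF4A (Eif4a1 or Eif4a2) and a gene for eIF4G (Eif4g1 or Eif4g3) had reads together in 15 of 16 dendrites and in 16 of 16 somas. A gene for eIF1, a gene for eIF1A and Eif5 had reads together in 13 dendrites and 16 somas. The alpha, beta and gamma subunits of eIF2 had reads together in 10 dendrites and 15 somas. The 13 eIF3 subunit genes that were tested had reads together in 7 dendrites and 15 somas, and the 5 genes of eIF2B in 4 dendrites and 13 somas. A dendrite had 3 to 13 of the 13 eIF3 subunit genes (median 12) and 0 to 5 of the 5 eIF2B genes (median 4). At equal reads per neuron the soma counts became 14 for eIF3 and 12 for eIF2B, and the dendrite counts for all 5 of these sets did not change. At a minimum of 10 reads, however, the eIF3 set was complete in 1 dendrite and 11 somas and the eIF2B set in 0 dendrites and 9 somas, while the cap-binding set was complete in 14 dendrites, the start codon set in 11 and eIF2 in 9.

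The compartments were next compared gene by gene, with the neuron as a block, in edgeR's quasi-likelihood test over 10880 genes with Benjamini-Hochberg adjustment. The median gene of all those tested was lower in dendrites, at a log2 fold change of -1.49, and each value is therefore also given relative to that gene. Of the 51 initiation factor genes, 1 was higher in somas at an adjusted p of at most 0.05 (Eif3c, 1.96% of them), where 5.71% of all genes tested were. None was higher in dendrites, where 0.827% of all genes were. Before adjustment, at p under 0.05, 14 of the 51 (27.5%) leaned to the soma and 0 to the dendrites, and 26.7% of all genes leaned to the soma at that p. The members' median log2 fold change was -1.62, 24 lay above the median gene and 27 below it. With no filter on low counts, where the median of all genes tested was -0.17, 8 of 55 lay above it. Single genes spread from -5.58 (Eif2d) to 0.97 (Eif3f). Eif2d had reads in 4 dendrites, and its value was -3.38 on exon counts and 0.54 without the neuron as a block.

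The count of called genes depended strongly on the test. DESeq2 with the same block placed 30 of the 51 (58.8%) higher in somas, with 46.2% of all genes. The exact sign-flip permutation test over neurons placed 14 (27.5%) higher in somas, with 19.7% of all genes. With libraries scaled to the ERCC spike-in RNA, in the 14 neurons labelled with one, 41 were higher in somas (80.4%), with 61.4% of all genes. In these 3 settings the share of the initiation factor genes called lay above that of all genes, whereas in edgeR it lay below. The spike-in took 0.344% to 17.1% of the exon and spike-in reads of those dendrites and 0.0631% to 0.875% of those of the somas. With the median gene set to 0, Eif3f and Eif4g2 were higher in dendrites (3.92% of the 51), where 5.04% of all genes were. Eif3c was called by each of these except the scaling with the median gene at 0. In no setting but that one was any member called higher in dendrites.

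**Figure D2:**
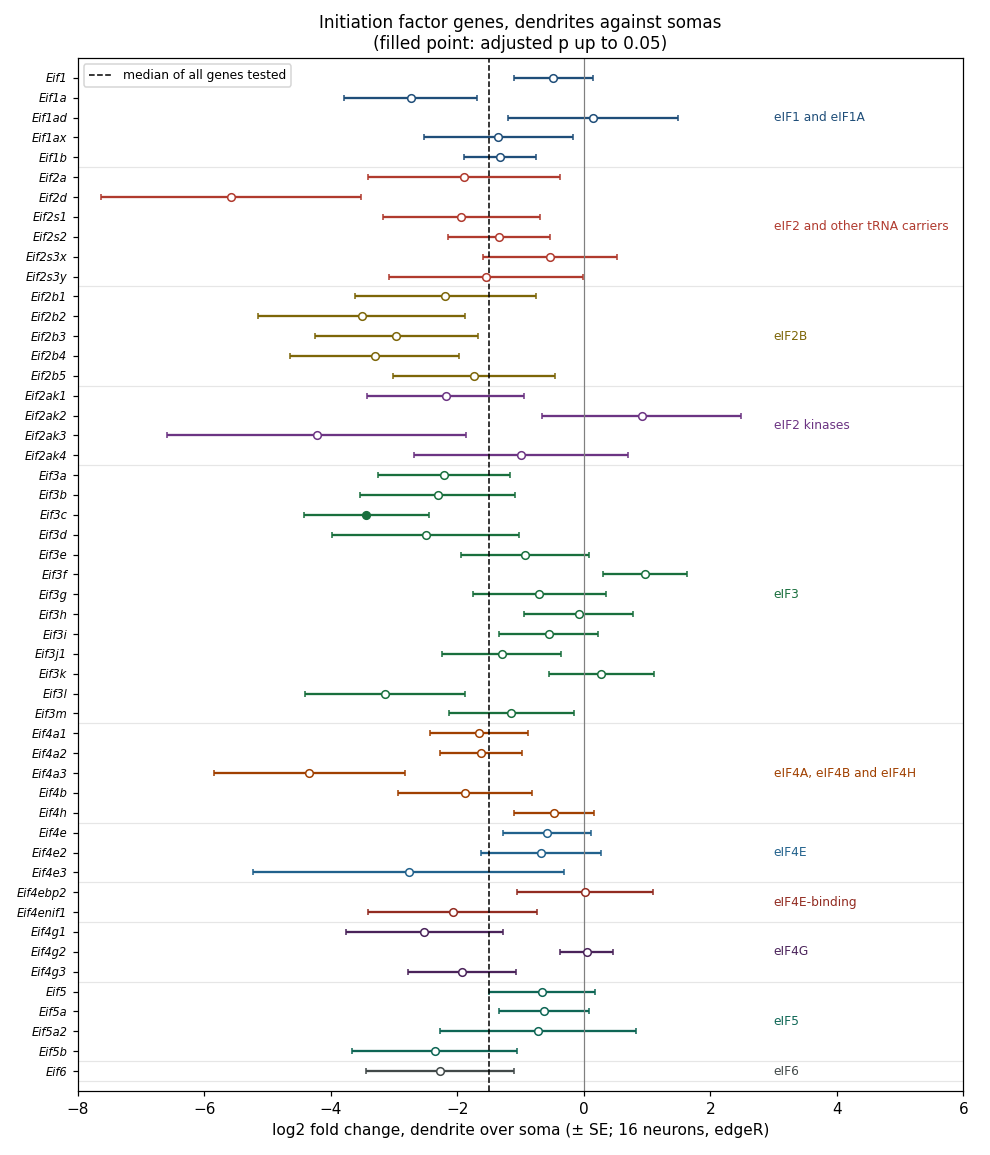
Log2 fold change (dendrite over soma) of the 51 tested initiation factor genes, grouped by factor, with bars for 1 SE over 16 neurons; the filled point has an adjusted p of at most 0.05, the grey line marks 0 and the dashed line the median of all genes tested. Eif3c at -3.44 is the single filled point, Eif3f at 0.97 lies farthest to the right, and all 5 eIF2B genes lie left of the dashed line.

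eIF3 is the large scaffold that binds the small ribosomal subunit and keeps the other factors on it. The median log2 fold change of its 13 tested genes was -1.15, with 8 above the median gene and 5 below it, and the values ran from -3.44 (Eif3c) to 0.97 (Eif3f). Eif3c (chromosome 7, 126546455 to 126566411 on the minus strand, GRCm38), a core subunit, had 0 to 238 CPM in dendrites (median 23.8) and 18.0 to 348 in somas (median 176). Its dendrite value was 0 in neurons 12, 15 and 16, and it was higher in the soma in 14 of 16 neurons, the exceptions being neuron 2 (238 in the dendrite and 176 in the soma) and neuron 9 (152 and 148). The log2 fold change was -3.44 with an SE of 0.99 and an adjusted p of 0.0319, or -1.95 relative to the median gene. On exon counts its log2 fold change was -1.67 (adjusted p = 0.251), and without neurons 15 and 16, an alternative chosen after seeing the data, it was -2.71 (adjusted p = 0.0701), so neither setting kept the call. The call was also lost with the median gene at 0, with no filter and at 10 reads or more. It was likewise lost with 2 or with 3 rounds alone and without the replicate block. The mean paired difference on the log2(CPM + 1) scale was negative within each of the 6 title letters, from -0.89 (B, 2 neurons) to -8.10 (P, 2 neurons), a grouping chosen after seeing the data.

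Eif3f (chromosome 7, 108934417 to 108942951 on the plus strand) lay at the other end. It had 2.43 to 2416 CPM in dendrites (median 273) and 15.3 to 333 in somas (median 150), had reads in all 32 libraries, and was higher in the dendrite in 12 of 16 neurons. The highest dendrite was that of neuron 15, and the lowest that of neuron 13. The log2 fold change was 0.97 with an SE of 0.67 (adjusted p = 0.306), or 2.46 relative to the median gene, which placed Eif3f above 89.2% of all genes tested. With the median gene set to 0 it was 2.46 with an adjusted p of 0.0130, and with scaling to the spike-in it was -1.47 (adjusted p = 0.238). On exon counts it was 1.42 (adjusted p = 0.163). It thus lay above the median gene with both kinds of counts, while the sign of the plain fold change followed the scaling. The mean paired difference was positive within each title letter, from 0.16 (H, 2 neurons) to 2.37 (P, 2 neurons). In B and in H, however, 1 neuron was higher in the dendrite and 1 in the soma.

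Eif3k and Eif3h also lay near 0. Eif3k had 0 to 555 CPM in dendrites (median 83.5) and 20.2 to 164 in somas (median 58.4), with 10 of 16 dendrites higher, and its log2 fold change was 0.27 (SE 0.83, adjusted p = 0.831). Eif3h had 0 to 558 in dendrites (median 82.0) and 37.9 to 84.4 in somas (median 63.8), with 9 of 16 dendrites higher, at -0.08 (SE 0.86, adjusted p = 0.954). The somas thus held Eif3h within a narrow range, while the dendrites ran well above and below it. At the other side, Eif3l was lower in 13 of 16 dendrites (0 to 256 CPM, median 14.8) than in their somas (21.3 to 200, median 116), at -3.14 (SE 1.26, adjusted p = 0.0979). Eif3a, the largest subunit, was likewise lower in 13 of 16 dendrites, at -2.21 (SE 1.04, adjusted p = 0.145). Eif3b, Eif3d, Eif3e, Eif3g, Eif3i, Eif3j1 and Eif3m lay between -2.50 and -0.56, and none of them was called.

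**Figure D3:**
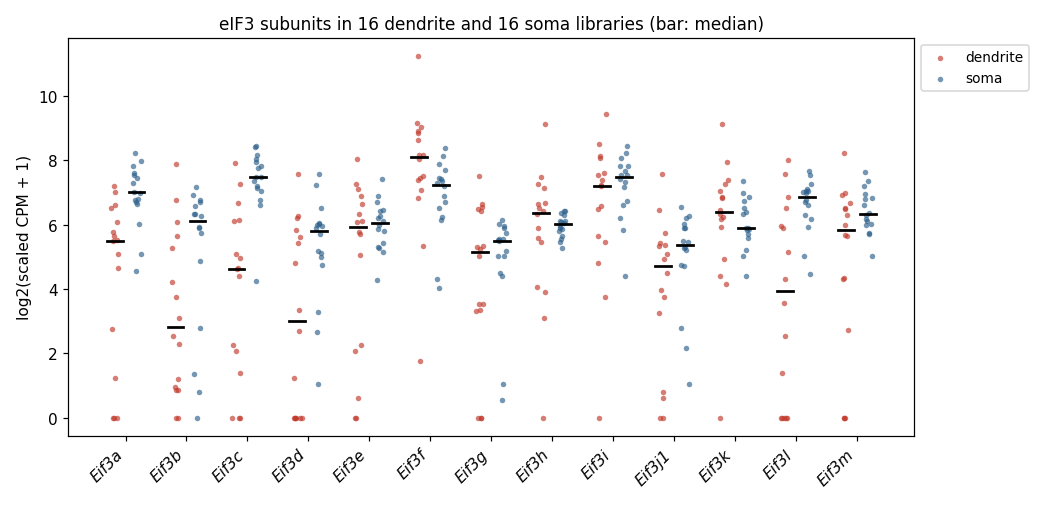
Level of 13 eIF3 subunit genes as log2(scaled CPM + 1) in the 16 dendrite (red) and 16 soma (blue) libraries, with 1 point per library and a bar at the median. Points of the somas spread less than those of the dendrites for each subunit (SD 0.34 to 2.38 against 2.04 to 3.04), dendrite points reach 0 for all except Eif3f, and the dendrite bar lies above the soma bar for Eif3f, Eif3h and Eif3k and far below it for Eif3b, Eif3c, Eif3d and Eif3l.

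The first bases of the message are shown for these subunits because messages of the translation machinery often start with a C and a run of pyrimidines, a feature known as a 5′ terminal oligopyrimidine tract, through which their translation responds to growth signals. The windows below hold 10 bases before and 20 from the RefSeq start (GRCm38.p6), 5′ to 3′, and capitals mark a start with C followed by at least 4 bases that are each C or T, as far as that run goes.
Eif3f (chr7:108934405-108934434, plus strand): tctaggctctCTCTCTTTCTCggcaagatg
Eif3k (chr7:28981869-28981898, minus strand): aaccggcgctggtgctgaaagcgcctttcc
Eif3c (chr7:126566347-126566376, minus strand): ctgctcagagggactcggcagcttagctgg
Eif2s3x (chrX:94212632-94212661, minus strand): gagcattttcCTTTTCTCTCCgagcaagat
Of the 56 genes, 44 were matched by symbol in the RefSeq table, and Eif3e, Eif3h and Eif3i were among those not matched. Eif3f, Eif2s3x (eIF2 gamma) and the non-coding Eif2c5 had such a start, 6.82% of the 44. Of all 27025 genes 3.01% did, with the strand of each gene taken into account. Eif3f and Eif2s3x thus share the feature, Eif3k and Eif3c do not have these letters at the RefSeq start, and all of this describes annotated sequence and not the ends of the messages in these cells.

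eIF4G was represented by 3 genes. Eif4g2 (chromosome 7, 111067750 to 111083030 on the minus strand) encodes a relative of eIF4G without the part that binds eIF4E. It had reads in every library, with 241 to 5312 CPM in dendrites (median 788) and 240 to 2528 in somas (median 812), and it took 5.24% to 44.9% of the initiation factor reads of a dendrite (median 16.8%) and 4.08% to 30.6% of those of a soma (median 13.9%). The ranges of the compartments overlapped, and the highest dendrite was that of neuron 15. The log2 fold change was 0.04 (SE 0.41, adjusted p = 0.953), or 1.53 relative to the median gene, with 6 of 16 dendrites higher. Its paired differences had the smallest SD of the 51 genes, 1.02 on the log2(CPM + 1) scale, where the median of the 51 was 2.91. Scaling decided its direction, with 1.53 (adjusted p = 0.0101) when the median gene was set to 0 and -2.29 (adjusted p = 0.0152) with the spike-in. Eif4g1, the canonical scaffold, had 0 to 126 CPM in dendrites (median 7.67) and 1.97 to 180 in somas (median 55.7), lower in 13 of 16 dendrites, at -2.52 (SE 1.24, adjusted p = 0.162). Eif4g3, a close relative of Eif4g1, had 2.62 to 319 in dendrites (median 63.0) and 78.0 to 466 in somas (median 212), at -1.93 (SE 0.86, adjusted p = 0.127).

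eIF4A is the helicase that unwinds the leader of the message, and both genes for its cytoplasmic forms had lower levels in most dendrites. Eif4a1 (chromosome 11) had 1.20 to 189 CPM in dendrites (median 54.9) and 64.0 to 309 in somas (median 129). Eif4a2 (chromosome 16), the form favoured in brain, had 0 to 562 in dendrites (median 117) and 100.4 to 619 in somas (median 284). Each was lower in 15 of 16 dendrites, the exception being neuron 10 for Eif4a1 and neuron 4 for Eif4a2. The log2 fold changes were -1.65 (SE 0.77, adjusted p = 0.143) and -1.62 (SE 0.64, adjusted p = 0.0941) in edgeR, and the exact sign-flip test gave adjusted p of 0.00697 and 0.00582. Relative to the median gene they were -0.16 and -0.13. Eif4a3, which belongs to the exon junction complex rather than to initiation, lay lower, at -4.34 (SE 1.51, adjusted p = 0.0650), with reads in 10 dendrites and 16 somas. Of the helicase's helpers, Eif4b was at -1.88 (SE 1.05, adjusted p = 0.211) and Eif4h at -0.48 (SE 0.63, adjusted p = 0.602), the latter with 220 CPM in the median dendrite and 299 in the median soma.

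The message of the cap-binding protein eIF4E was among the genes nearer to 0. Eif4e had 0 to 1200 CPM in dendrites (median 175) and 116 to 385 in somas (median 262), at -0.59 (SE 0.70, adjusted p = 0.556), and 6 of 16 dendrites were higher. Eif4e2, a relative that represses translation, was at -0.68 (SE 0.95, adjusted p = 0.624), with 8 neurons in each direction. Eif4e3 had reads in 7 dendrites and 12 somas and the widest paired differences of the 51 genes (SD 4.02). Eif4e1b, the oocyte form, had reads in 1 dendrite and 0 somas. Among the proteins that hold eIF4E, Eif4ebp2, the main 4E-BP of brain, was read in 14 dendrites and 15 somas (medians 11.9 and 20.7 CPM), and its log2 fold change was 0.02 (SE 1.08, adjusted p = 0.993). That value turned to -2.31 (adjusted p = 0.414) on exon counts. Eif4enif1, which carries eIF4E into the nucleus, was at -2.07 (SE 1.33, adjusted p = 0.273). Eif4ebp1 had reads in 4 dendrites and 10 somas, and Eif4ebp3 had no reads in any library, where 3 reads is the most that a count of 0 allows in a library, counting error only.

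**Figure D4:**
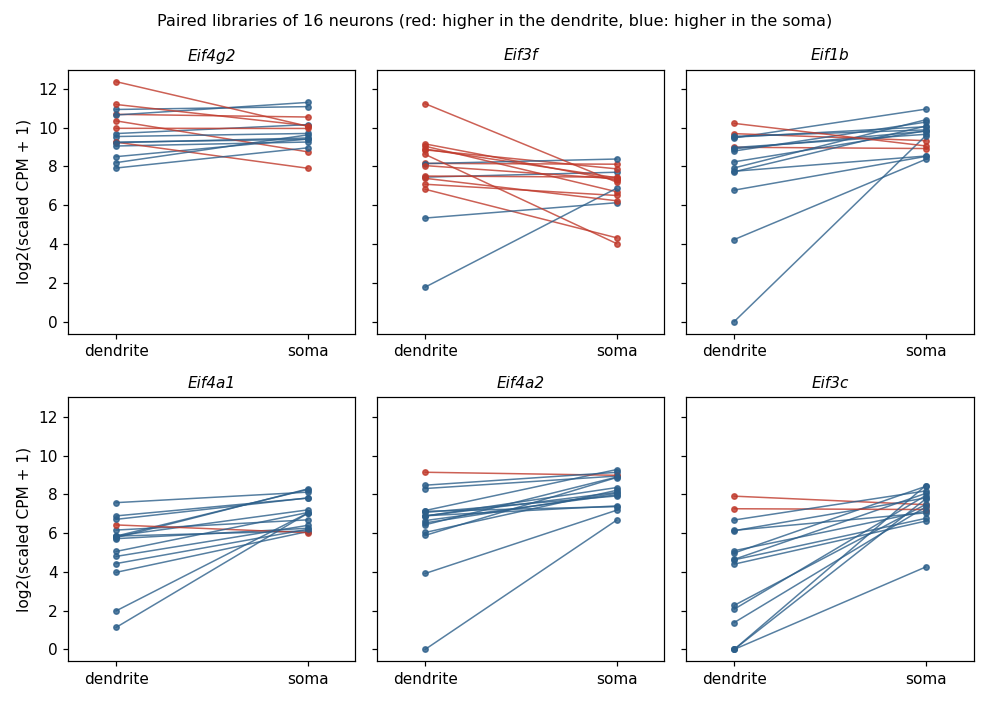
Level of 6 initiation factor genes as log2(scaled CPM + 1) in the dendrite and the soma of each of 16 neurons, with a line joining the pair, red where the dendrite is higher and blue where the soma is. Eif3f is higher in 12 dendrites, Eif4g2 in 6, Eif1b in 3, Eif3c in 2, and Eif4a1 and Eif4a2 in 1 each.

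Among the factors of start codon choice, Eif1 and Eif1b, which encode near-identical forms of eIF1, took many reads in both compartments. Eif1 had 0 to 897 CPM in dendrites (median 257) and 143 to 610 in somas (median 366), at -0.48 (SE 0.63, adjusted p = 0.592). Eif1b had 0 to 1195 in dendrites (median 463) and 329 to 1986 in somas (median 856), at -1.33 (SE 0.57, adjusted p = 0.116), and 13 of 16 dendrites lay below their somas. Both were at 0 in the dendrite of neuron 15 and highest in that of neuron 16. Eif1a was at -2.74 (SE 1.05, adjusted p = 0.0848), lower in 13 of 16 dendrites, and Eif1ax at -1.35 (SE 1.18, adjusted p = 0.417). Eif1ad, which resembles eIF1A by sequence, was at 0.14 (SE 1.34, adjusted p = 0.949), with medians of 51.9 CPM in dendrites and 29.4 in somas, and its mean in dendrites leaned on neuron 15 (1408). Of the eIF5 group, Eif5, which triggers GTP hydrolysis on eIF2, was at -0.67 (SE 0.84, adjusted p = 0.580) and Eif5a, which helps the ribosome past difficult peptide bonds, at -0.63 (SE 0.71, adjusted p = 0.534). Eif5a2 was at -0.72 and Eif5b, which joins the subunits, at -2.36 (SE 1.30, adjusted p = 0.205). Eif6, which keeps the large subunit apart, was at -2.28 (SE 1.17, adjusted p = 0.176).

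Of the 6 genes of eIF2 and other carriers and the 5 of its exchange factor eIF2B, none was called. All had a log2 fold change below 0, where 21.2% of all genes tested had one above 0, and Eif2s2 and Eif2s3x lay above the median gene. Eif2s2 (eIF2 beta) had 0 to 488 CPM in dendrites (median 128) and 83.3 to 463 in somas (median 273), at -1.35 (SE 0.81, adjusted p = 0.241), and Eif2s1 (eIF2 alpha, the subunit that the kinases phosphorylate) was at -1.94 (SE 1.24, adjusted p = 0.271). Eif2s3x (eIF2 gamma) was at -0.54 (SE 1.05, adjusted p = 0.733), with medians of 29.9 and 33.4 CPM. Eif2a and Eif2d, which can deliver initiator tRNA without eIF2, were at -1.90 (SE 1.52, adjusted p = 0.376) and -5.58 (SE 2.05, adjusted p = 0.0763). Eif2d had reads in 4 dendrites and 14 somas. Each was higher in the soma in 11 neurons. Their mean levels were nevertheless higher in dendrites, at 47.7 against 38.1 CPM for Eif2a and 20.01 against 13.8 for Eif2d. Without the neuron as a block both fold changes turned sign, to 0.32 (Eif2a) and 0.54 (Eif2d). The mean paired differences on the log2(CPM + 1) scale were -1.27 and -1.45. All 5 genes of eIF2B lay below the median gene, from -3.51 (Eif2b2) to -1.74 (Eif2b5), with a median of -2.97 and none called. Eif2b4, the delta subunit, showed how uneven this was, with a median of 5.08 CPM in dendrites, 988 in the dendrite of neuron 16, and a median of 43.0 in somas.

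Eif2s3y, the Y-linked copy of eIF2 gamma, was read in some of the neurons and not in others. It had reads in both libraries of 8 neurons, in the dendrite alone in 1, in the soma alone in 3 and in neither in 4, and its highest values were 140 CPM in a dendrite and 396 in a soma. The labels do not give the sex of the embryos. In 10 neurons 1 library or both had at least 10 reads, and in 4 of these both did. All 10 also had reads on Ddx3y, Kdm5d or Uty, further Y-linked genes that were chosen after their values were seen, but so did 3 of the 4 neurons with no Eif2s3y read, and neuron 12, with 0 and 1 reads of Eif2s3y, had 169 and 61 of Ddx3y (dendrite and soma). At 1 read these genes therefore did not separate the neurons, but their read numbers did. Neurons 9, 10, 11, 15 and 16 had at most 6 reads on any of Eif2s3y, Ddx3y, Kdm5d and Uty in either library. Each other neuron had at least 67 reads on 1 or more of these genes in 1 library or both. The log2 fold change of Eif2s3y was -1.54 (SE 1.53, adjusted p = 0.480) over the 12 neurons with reads.

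The 4 eIF2 kinases sense heme (Eif2ak1), double-stranded RNA (Eif2ak2), unfolded proteins (Eif2ak3) and amino acid shortage (Eif2ak4). Eif2ak1 was read in 13 dendrites (median 19.5 CPM over all 16) and in all somas (median 38.6), and its log2 fold change was -2.19 (SE 1.24, adjusted p = 0.217). The other kinases had reads in 6 to 9 dendrites and 9 to 11 somas, and their log2 fold changes ran from -4.22 (Eif2ak3, SE 2.36) to 0.92 (Eif2ak2, SE 1.57), none of them called.

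To take the scale of the libraries out of the comparison, the reads of related genes were set against each other within each library, as log2 ratios with 0.5 added to each count, and the ratio in the dendrite was compared with that in the soma of the same neuron (exact two-sided sign-flip permutation test, adjusted over 7 ratios). Eif1b over Eif1 was lower in the dendrite, with a difference of -0.86 ± 1.12 (SD, n = 15 neurons, 95% interval of the mean difference from -1.47 to -0.24, exact p = 0.0109, adjusted p = 0.0422), at 0.32 in dendrites and 1.18 in somas, and it was lower in 11 of 15 dendrites. Eif4g2 over Eif4g1 was higher in the dendrite by 2.65 ± 3.83 (SD, n = 16, 0.62 to 4.68, exact p = 0.0143, adjusted p = 0.0422), in 13 of 16 neurons. Eif4g1 had no read in 4 of those dendrites. In the 12 neurons with reads of both genes in both compartments, an alternative chosen after seeing the data, that difference was 1.09 with an adjusted exact p of 0.426, while for Eif1b over Eif1, where no count was 0, the same setting kept -0.86 and gave an adjusted exact p of 0.0652. Eif3j2 over Eif3j1 was higher in the dendrite by 1.19 ± 1.41 (SD, n = 12, exact p = 0.0181, adjusted p = 0.0422), but Eif3j2 had no read in 9 of 12 dendrites and 4 of 12 somas, and at equal reads the difference was 0.71 (adjusted exact p = 0.114). Eif3j1 and Eif3j2 are close copies, so their reads may not be told apart. Eif1 and Eif1b are alike in their coding parts, and how alike their 3′UTRs are was not tested.

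The other ratios did not pass the test, and their intervals were wide. Eif4a2 over Eif4a1 differed by -0.04 ± 2.44 (SD, n = 16, -1.30 to 1.20, exact p = 0.950), Eif4e2 over Eif4e by 0.14 ± 5.16 (n = 16, -2.29 to 2.87, exact p = 0.937), Eif4g3 over Eif4g1 by 0.49 ± 3.45 (n = 15, -1.41 to 2.39, exact p = 0.592) and Eif5a2 over Eif5a by 0.14 ± 3.98 (n = 15, -2.05 to 2.36, exact p = 0.893). The ratio of the 2 eIF4A genes was thus near its soma value on average, with an interval that reached 1.30 below and 1.20 above it on the log2 scale. Within single neurons it was not steady, and the difference ran from -6.45 in neuron 15 to 5.21 in neuron 12. Counts of 0 entered these other ratios. Eif5a2 had no read in 6 of 15 dendrites and 3 of 15 somas, and Eif4g1 none in 3 of 15 dendrites. With reads of both genes required, an alternative chosen after seeing the data, Eif4a2 over Eif4a1 turned to 0.39 (n = 15). Eif4e2 over Eif4e turned to -0.77 (n = 14) and Eif4g3 over Eif4g1 to -0.62 (n = 12). Eif5a2 over Eif5a rose to 1.498 (n = 8), and none of them passed. Without neuron 5, and likewise without neurons 15 and 16, no ratio kept an adjusted p of at most 0.05 (smallest 0.0590 and 0.0632, exact tests). In the 12 neurons of 2 rounds Eif1b over Eif1 differed by -0.997 (adjusted exact p = 0.0991) and Eif4g2 over Eif4g1 by 3.10 (adjusted exact p = 0.0752), and in the 4 of 3 rounds the mean differences were -0.47 and 1.30, with no test. By title letter, Eif1b over Eif1 had a negative mean in each, nearest to 0 in P (-0.19, 1 neuron), and Eif4g2 over Eif4g1 a positive mean in each except B, from -1.75 (B) to 8.12 (P).

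**Figure D5:**
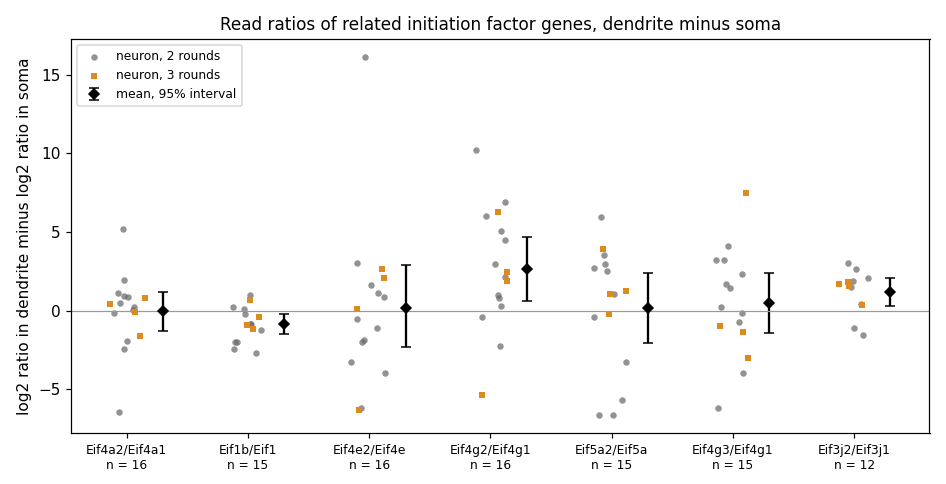
Difference between dendrite and soma in the log2 read ratio of 7 pairs of related genes, with 1 point per neuron (grey circles, 2 rounds; orange squares, 3 rounds) and a diamond with bars for the mean and its 95% interval from the sign-flip test. The interval excludes 0 for Eif1b over Eif1, Eif4g2 over Eif4g1 and Eif3j2 over Eif3j1. Single neurons spread over more than 10 log2 units for every pair except Eif1b over Eif1 and Eif3j2 over Eif3j1.

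The 3′ ends of these messages were also counted separately, as up to 9 features per gene, and the reads on the 2 fullest features of a gene were compared as the share of the higher-numbered one. Of 3522 genes with enough reads, 8.4% had an unadjusted p under 0.1 in the exact signed-rank test, and of 23 initiation factor genes 1 did (Eif2ak1). For Eif2ak1 the second feature took 87.7% ± 31.4 of the reads in dendrites and 66.0% ± 32.7 in somas (SD, n = 8 neurons), 21.7 points more in the dendrite (SD 23.7, exact p = 0.0625, adjusted p = 0.953). It was higher in the dendrite in 5 neurons and equal in 3, where 100.0% of reads lay on it in both compartments. The difference was 39.0, 53.5, 45.1 and 35.9 points in neurons 4, 5, 7 and 9, with 73, 29, 21 and 39 dendrite reads, and 0.204 points in neuron 2. Neither Eif4g2 (76.1% and 85.9%, n = 16, exact p = 0.211) nor Eif3f (16.2% and 18.9%, n = 15, exact p = 0.252) passed, and Eif4a1 and Eif3e had nearly all reads on 1 feature in both compartments. No gene of the 3522, initiation factors included, passed an adjusted p of 0.05.

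The number of amplification rounds did not alter the compartment effect of any initiation factor gene past the threshold. In a model with the interaction of compartment and rounds, 0 of the 51 genes had an adjusted p of at most 0.05 in edgeR and 0 had a p under 0.05 before adjustment, and 0 of all 10880 genes did after adjustment, with 288 at an unadjusted p under 0.05. With 4 neurons of 3 rounds this test can miss large differences. The smallest p was that of Eif2b4, whose log2 fold change was 4.41 higher in 3 rounds than in 2 (unadjusted p = 0.123 in edgeR).

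Genes that work with the initiation factors without bearing their name were tested in the same fit. Of 32 such partners (poly-A binding proteins, eIF4E kinases, regulators of eIF2 and of eIF4E), 31 were tested, 1 was higher in somas at an adjusted p of at most 0.05 (5.71% of all genes), none was higher in dendrites (0.827%), and 12 leaned to the soma at p under 0.05 before adjustment (26.7%). Their median log2 fold change was -1.48, with 16 above the median gene. The gene called was Nck1, an adaptor that links signalling to eIF2, read in 9 dendrites and 16 somas, at -5.05 (SE 1.41, adjusted p = 0.0266). 1 partner had a value above 0, Gigyf2 (0.28, SE 1.23, adjusted p = 0.888), which works with Eif4e2 in repression. Other partners near 0 were Cyfip2 (-0.09, SE 0.60, adjusted p = 0.931), whose relative Cyfip1 binds eIF4E in dendrites, Impact (-0.18, SE 0.78, adjusted p = 0.886), which holds back the kinase of Eif2ak4, and Pabpc1 (-0.30, SE 0.70, adjusted p = 0.773), the poly-A binding protein that meets eIF4G, with reads in every library. Atf4, whose translation rises when eIF2 is phosphorylated, lay lower in 14 of 16 dendrites, at -1.45 (SE 0.71, adjusted p = 0.159).

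Exon counts, a separate tally of the same libraries, were available for 50 of the 51 genes in a test of 9804 genes. The sign of the log2 fold change was the same in 48, and it changed for Eif3h (0.27 on exons) and Eif4ebp2. The median over the 50 was -1.14 on exons and -1.64 on 3′UTRs, and 0 of the 50 were called on exons in edgeR.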

How the data were processed

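The authors trimmed the reads, aligned them to mm10 with STAR 2.4.0 (version per the submitters' processing notes) and used VERSE for counting uniquely mapped reads. All deposited values are whole-number counts without normalization, on the combined 3′UTRs of 44081 genes, on separate 3′ ends, and on exons with ERCC spike-ins. The order of the 3′ ends along a gene is not given in the sources used here, so shares refer to the higher-numbered feature and not to distal use.

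The 10880 genes on which 16 or more libraries held a read were tested with edgeR 4.0.16 in R 4.3.3 (TMM, robust quasi-likelihood fit, neuron as block), with DESeq2 1.42.0 as an alternative. SE was taken as the fold change over the root of F. Exact tests used SciPy 1.17.1. Isoform shares needed at least 10 reads in both compartments of at least 5 neurons. Tests were tried on simulated data. Both compartments came from the same cell, and deviations from the group means correlated at 0.0887 ± 0.0772 (SD, n = 16) within neurons and -0.00559 ± 0.0526 (n = 240) between neurons.

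The genes, lists and comparisons were chosen with earlier results of these data known. Named genes were the called ones, those with the most reads in each factor group, the pairs tested as ratios and those with an isoform p under 0.1. Further genes were named for their role in a factor. Alternatives are given in the closing section. Protein sequences were not used here. Reads carry no molecular identifiers, so counts are not molecules, and 0 columns were left unused.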

Additional observations from a re-analysis of the deposited data

Results flagged for a closer look

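Data outside the comparisons held some signal. The 4 libraries of neurons 1 and 2, labelled without spike-in RNA, had 65 and 59 reads (dendrite and soma of neuron 1) and 72 and 80 reads (dendrite and soma of neuron 2) on the ERCC sequences, above the 3 reads that a count of 0 allows. The rows named as pseudogenes of initiation factors, which the rule left out, also had reads over the 32 libraries, 674 on Eif3s6-ps1, 864 on Eif4a-ps4 and 22 on Eif5al3-ps. No initiation factor gene moved one way in every neuron of 2 rounds and the other way in every neuron of 3 rounds.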

How the results depend on the processing

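Of the initiation factor genes, 1 was higher in somas in the edgeR test. That count was 30 with DESeq2, 14 with the sign-flip test, 3 with DESeq2 size factors, 41 with spike-in scaling, 2 without replicate 5, and 0 with the median gene at 0, with no filter, at 10 reads or more, on exon counts, with 2 or with 3 rounds alone, and without neurons 15 and 16 (chosen after seeing the data). Without the replicate block, so ignoring the pairing by neuron, it was also 0. Genes higher in dendrites numbered 0, and 2 with the median gene at 0. Eif4g2 turned from 0.04 to -2.29 with spike-in scaling. Over 51 genes and 14 alternatives, where a gene was tested, 610 values kept the status of the main test. For every gene but Eif3c that status was not called. A further 86 values gained a call, and 1 was called with its sign turned (Eif4g2 with spike-in scaling). The 8 that lost a call were all of Eif3c. Isoform genes with p under 0.1 numbered 1, against 0 at 20 reads, with 2 rounds alone and without replicate 5, 3 at 5 reads and 2 without the replicate block.

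Of the ratios, Eif1b over Eif1 (-0.86) passed at equal reads, with a pseudocount of 1 and on exons, and lost its call at 30 reads (-0.86), with 2 rounds alone (-0.997), without replicate 5 (-0.83), without the replicate block (-0.86), with reads of both genes required (-0.86) and without neurons 15 and 16 (-0.90). Eif4g2 over Eif4g1 (2.65) passed at equal reads, with a pseudocount of 1 and without the block, and lost its call at 30 reads (2.65), on exons (2.33), with 2 rounds alone (3.10), without replicate 5 (2.98), with both genes read (1.09) and without neurons 15 and 16 (1.87). Eif3j2 over Eif3j1 (1.19) passed with a pseudocount of 1 and lost its call at 30 reads (0.63), with 2 rounds alone (1.11), without replicate 5 (1.02), without the block (1.19), at equal reads (0.71) and without neurons 15 and 16 (1.19). For Eif1b over Eif1 at 30 reads and with both genes read, the difference and the exact p (0.0109) equalled the main ones. In those settings the adjusted p alone moved. The same held for Eif4g2 over Eif4g1 at 30 reads (exact p = 0.0143). It also held for Eif3j2 over Eif3j1 without neurons 15 and 16 (exact p = 0.0181). The cause of the other changes was not tested. The 16 neurons vary so much that a miss in edgeR does not show equal levels. At equal reads the dendrites lacked 8.62 of the genes instead of 9.69. Genes above the median of all genes tested numbered 24, 20 to 30 under the other alternatives, and 8 of 55 with no filter.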
